A study of Mus musculus with 12 samples.

Results

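The genes described here encode the innate immune sensors of microbial products that are best known from the gut: the Toll-like receptors Tlr2, Tlr3, Tlr4, Tlr5 and Tlr9, the endotoxin co-receptors Cd14 and Ly96, the intracellular peptidoglycan sensors Nod1 and Nod2, and the shared adaptor Myd88. The list of 10 genes was taken as given and matched to the array through the platform's table of probe sets and gene symbols, keeping for each gene the probe set with a single symbol and the highest mean over all arrays. That left 9 genes, each with 1 such probe set, among 19938 genes named in this way. Tlr5, the flagellin receptor, had no probe set with its symbol alone in the table and was not analysed here.

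Jejunum was taken from male mice, 8 weeks of age, at day 7 after an operation, and total RNA was hybridised to 12 Affymetrix arrays. The 4 groups had 3 arrays each. They were A/J mice after common bile duct ligation (A/J CBDL), A/J mice after a sham operation (A/J sham), C57BL/6J mice after ligation (B6 CBDL) and C57BL/6J mice after a sham operation (B6 sham). All mice had the abdomen opened and were given buprenorphine, and in sham mice the duct was neither dissected nor clipped. Ligation of the common bile duct keeps bile from the intestine and produces cholestasis, and the study set the A/J strain against the B6 strain to find genes that accompany intestinal injury in cholestasis. A/J and B6 are inbred strains that differ at many places in the genome, so a strain difference cannot be assigned to a single gene. The labels do not state that each array came from a separate animal, so the p-values measure the spread between these arrays. In bulk jejunum, fewer cells of a type and less RNA per cell cannot be told apart.

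Toll-like receptors bind molecules that microbes carry and host cells mostly lack. At the cell surface Tlr4 recognises bacterial endotoxin, which the plasma protein Lbp hands to Cd14 and Cd14 hands to Ly96 (also called MD-2), the small protein that holds the endotoxin against Tlr4. Tlr2 recognises bacterial lipoproteins together with Tlr1 or Tlr6, Tlr3 and Tlr9 recognise double-stranded RNA and unmethylated DNA inside endosomes, and Nod1 and Nod2 recognise fragments of the bacterial cell wall in the cytosol. All of these Toll-like receptors except Tlr3 signal through Myd88, and the common end point is the transcription factor NF-kB. In the intestine the same receptors face the resident bacteria, and both epithelial cells and macrophages carry them.

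Values are log2 signals, so that a difference of 1 is a doubling. A gene was called at an adjusted p under 0.05 in limma, a linear model fitted to all 35556 probe sets with Benjamini-Hochberg adjustment over all of them. Enterocyte markers, which define the labelled tissue, averaged 11.8 to 11.9 on every array. Markers of hepatocytes were also present and moved with the groups: the mean of 22 such genes was 8.35 to 8.82 in A/J CBDL, 5.21 to 5.67 in A/J sham, 8.36 to 8.59 in B6 CBDL and 6.35 to 8.19 in B6 sham. Of these 22 genes, 18 were called higher in A/J CBDL than in A/J sham, with a median difference of 3.10. In B6 all 22 had positive ligation differences with a median of 1.19 and 16 had an unadjusted p under 0.05, but 0 were called in limma. Between the shams 6 were called lower in A/J. The mean of 12 macrophage and monocyte markers was 6.92 to 7.14 in A/J CBDL, 6.66 to 7.18 in A/J sham, 6.86 to 7.03 in B6 CBDL and 7.01 to 7.03 in B6 sham, and 0 of the 12 were called in any comparison. Other lists moved more, with few calls: averaged over strains, the ligation differences of 5 of 5 T cell, 6 of 6 B cell and 7 of 7 dendritic cell markers were negative (medians -0.34, -0.20 and -0.23), in B6 those of 6 of 6 smooth muscle markers were negative (median -1.42), and averaged over operations all T cell, B cell and dendritic cell markers were higher in A/J (medians 0.19, 0.28 and 0.11). Of the markers in these 4 lists, the T cell gene Cd3e between CBDL mice was the only one called in any comparison. Of 6 Paneth cell markers, 5 were lower in A/J averaged over operations (median -0.36). In each strain comparison 1 of them was called lower, with a limma adjusted p of 7.02e-05 averaged over operations. Of 6 goblet cell markers, 1 was called lower in A/J in sham mice (limma adjusted p = 0.0213) and averaged over operations (0.0110). Of 11 enterocyte markers, 1 was called lower after ligation averaged over strains (limma adjusted p = 0.0303). The part of these cell types in the results below was not tested.

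Ly96 was the member that separated the strains. Its signal was lower in A/J than in B6 jejunum whichever operation the mice had, and it was the only one of the 9 members called in any comparison. The 3 A/J CBDL arrays had log2 signals of 4.15, 3.60 and 4.21, and the 3 A/J sham arrays had 3.91, 4.34 and 4.18. The 3 B6 CBDL arrays had 5.62, 6.01 and 5.40, and the 3 B6 sham arrays had 6.03, 5.65 and 6.19. Every A/J array lay below every B6 array: the A/J arrays ran from 3.60 to 4.34 with a median of 4.16, the B6 arrays from 5.40 to 6.19 with a median of 5.83, and a gap of 1.06 log2 units lay between the highest A/J and the lowest B6 array.

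The strain difference in Ly96 had nearly the same size under either operation. Among sham mice A/J minus B6 was -1.82 (SE 0.21, limma adjusted p = 0.00150), and among CBDL mice it was -1.69 (SE 0.21, limma adjusted p = 0.00275). Averaged over both operations it was -1.75 (95% interval -2.08 to -1.42, limma adjusted p = 7.46e-05), which puts the A/J signal at 29.7% of the B6 signal, or 3.37-fold lower. The A/J group means of Ly96, 3.99 and 4.14, lay below the array medians of 5.36 to 5.51. How far background signal enters this ratio was not tested. Of all 35556 probe sets, 134, or 0.377%, had a strain difference of larger size. The shares of all probe sets called were 1.87% between the shams, 1.78% between the CBDL groups and 4.63% for the strain average, with 1.29%, 1.22% and 3.12% called lower in A/J. Of the variance of Ly96 over the 12 arrays, 91.8% lay between the strains.

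No ligation difference in Ly96 passed the test. A/J CBDL averaged 3.99 ± 0.33 against 4.14 ± 0.22 in A/J sham (SD, n = 3 each), a difference of -0.15 (95% interval -0.62 to 0.31, limma adjusted p = 0.796). B6 CBDL averaged 5.67 ± 0.31 against 5.96 ± 0.28 in B6 sham, a difference of -0.29 (95% interval -0.75 to 0.18, limma adjusted p = 0.870). The intervals still allow a decline of up to 0.62 in A/J and 0.75 in B6. The A/J response minus the B6 response was 0.13 (SE 0.30, limma adjusted p = 0.961).

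The hepatocyte markers differed between the shams in the same direction as Ly96, and in the CBDL groups their means overlapped. With the hepatocyte mean as a covariate, the sham difference was -1.73 and was no longer called (limma adjusted p = 0.355), in a fit that called 23 probe sets in all, while the CBDL difference was -1.69 (limma adjusted p = 0.00412) and the average -1.71 (limma adjusted p = 0.00681). Whether the strains differ in sequence under the Ly96 probes was not tested.

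The genes next to Ly96 differed less between the strains. The 5 protein-coding genes on either side of it in RefSeq order, all 10 of them measured, had strain differences of -0.39 to 0.26. Of these 10, 2 were called, beside 4.63% of all probe sets. They were Eloc, a subunit of ubiquitin ligases, at -0.39 (SE 0.07, limma adjusted p = 0.00780) and Stau2, an RNA-binding protein, at 0.26 (SE 0.06, limma adjusted p = 0.0409). The genes with array patterns most like that of Ly96, by the root mean square difference of centred log2 values over the 12 arrays among 19937 genes, were Rec8, a subunit of meiotic cohesin, at 0.24, Ccnyl1, a cyclin-Y-like protein, at 0.28, and Muc4, a membrane mucin, at 0.32, where Ly96 itself varied by a root mean square of 0.91. Their A/J minus B6 differences, averaged over operations, were -1.58, -1.49 and -1.36. These genes were picked for their likeness to Ly96, so such strain differences follow from the choice.

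**Figure D1:**
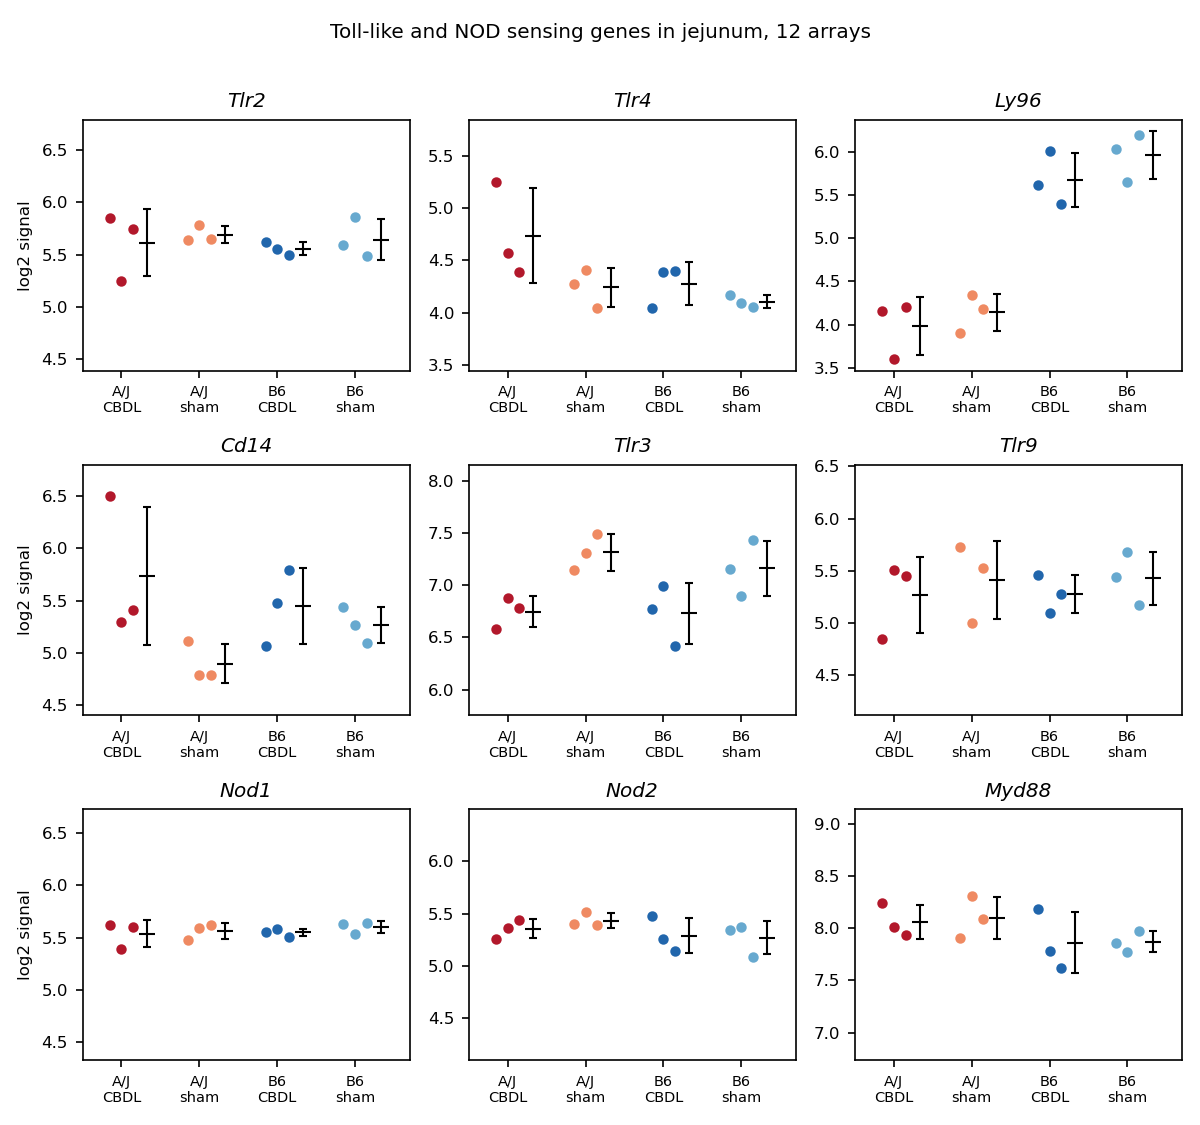
Log2 signal (vertical axes, each spanning at least 2.4 units but centred on its own gene) of the 9 measured members in each group, with 1 point per array and, at the right of each group, the mean with its SD (n = 3). Ly96 lies between 3.60 and 4.34 on every A/J array and between 5.40 and 6.19 on every B6 array, while the groups of most other members overlap.

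Cd14, the protein that delivers endotoxin to Ly96 and Tlr4, had higher signals in A/J mice after ligation, but the difference did not pass the test. The 3 A/J CBDL arrays had 6.50, 5.30 and 5.41, against 5.11, 4.78 and 4.79 in A/J sham. In B6 the values were 5.07, 5.48 and 5.79 in B6 CBDL and 5.44, 5.26 and 5.10 in B6 sham. All 3 A/J CBDL arrays lay above all 3 A/J sham arrays, whereas the B6 groups overlapped. The A/J difference was 0.84 (SE 0.29, unadjusted p = 0.0136, limma adjusted p = 0.220), and the B6 difference was 0.18 (95% interval -0.45 to 0.81, limma adjusted p = 0.958). The test of the A/J against the B6 response gave 0.66 (SE 0.40, limma adjusted p = 0.799), so the responses are not shown to differ. A/J CBDL replicate 1 decided much of the A/J value: without that array the A/J difference was 0.46 (limma adjusted p = 0.362). The hepatocyte markers rose in the same comparison, and with their mean as a covariate the A/J difference in Cd14 was 1.62 (limma adjusted p = 1.00). That mean did not overlap between the A/J groups (8.35 to 8.82 in A/J CBDL, 5.21 to 5.67 in A/J sham). The fit therefore cannot separate the hepatocyte mean from ligation.

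Tlr4, the signalling receptor for endotoxin, showed the same outlying array. Its log2 signals were 5.25, 4.57 and 4.39 in A/J CBDL and 4.27, 4.41 and 4.04 in A/J sham, and 4.04, 4.39 and 4.40 in B6 CBDL and 4.17, 4.09 and 4.06 in B6 sham. The groups overlapped in both strains, with A/J CBDL replicate 1 above all other arrays. CBDL minus sham was 0.49 in A/J (SE 0.20, unadjusted p = 0.0299, limma adjusted p = 0.294) and 0.17 in B6 (SE 0.20, limma adjusted p = 0.936). Without A/J CBDL replicate 1 the A/J difference was 0.24 (limma adjusted p = 0.534). Between the strains Tlr4 differed by 0.30 averaged over operations (95% interval -0.01 to 0.61, limma adjusted p = 0.268), opposite in sign to Ly96 and not called, and by 0.17 without A/J CBDL replicate 1. The Tlr4 group means, 4.11 to 4.74, lay below the array medians of 5.36 to 5.51. Cd14 and Tlr9 averaged 5.34 and 5.35 over all arrays, just below those medians. How far background signal enters the differences of these genes was not tested.

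The A/J CBDL replicate 1 array that was high for Cd14 and Tlr4 was high for inflammatory genes as well. It gave the highest value of the 12 arrays for 10 of 24 genes known to be induced through these receptors, and for 8.76% of all probe sets. Among them Saa3, an acute-phase protein, had 8.63 on that array and 5.68 and 5.05 on the other A/J CBDL arrays, and the cytokine gene Il1b had 6.18 there and 5.41 and 5.23 on the others. The mean of the 24 genes was 6.24, 5.67 and 5.68 in A/J CBDL and 5.50, 5.50 and 5.44 in A/J sham. In B6 it was 6.02, 5.55 and 5.58 in B6 CBDL and 5.46, 5.54 and 5.28 in B6 sham. B6 CBDL replicate 1, with the highest mean of the 24 genes in its group, had the lowest Cd14 and Tlr4 signals of its group. The part of these genes in the Cd14 and Tlr4 differences was not tested.

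Lbp, the carrier that brings endotoxin to Cd14, was called higher after ligation. Its log2 signals were 6.98, 6.87 and 7.01 in A/J CBDL and 5.72, 5.75 and 5.72 in A/J sham, and 6.97, 6.60 and 6.88 in B6 CBDL and 5.62, 6.09 and 6.17 in B6 sham. Both strains showed separate groups. The difference was 1.23 in A/J (SE 0.14, limma adjusted p = 0.00434) and 0.86 in B6 (SE 0.14, limma adjusted p = 0.0694, not called), and averaged over strains it was 1.04 (SE 0.10, limma adjusted p = 0.00104). Lbp is made largely by hepatocytes, and the hepatocyte markers had higher signals after ligation in both strains. The part of hepatocyte RNA in the Lbp difference was not tested. With the hepatocyte mean as a covariate the Lbp difference was 0.64 in A/J and 0.63 averaged over strains, and neither was called (limma adjusted p = 1.00 for both). That fit cannot separate hepatocyte RNA from ligation. The covariate was 8.35 to 8.82 in A/J CBDL and 5.21 to 5.67 in A/J sham. For ligation averaged over strains the fit called 0 of all probe sets. Of the 4 genes of endotoxin recognition, Lbp was called with ligation, Ly96 with strain, and Cd14 and Tlr4 with neither.

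**Figure D2:**
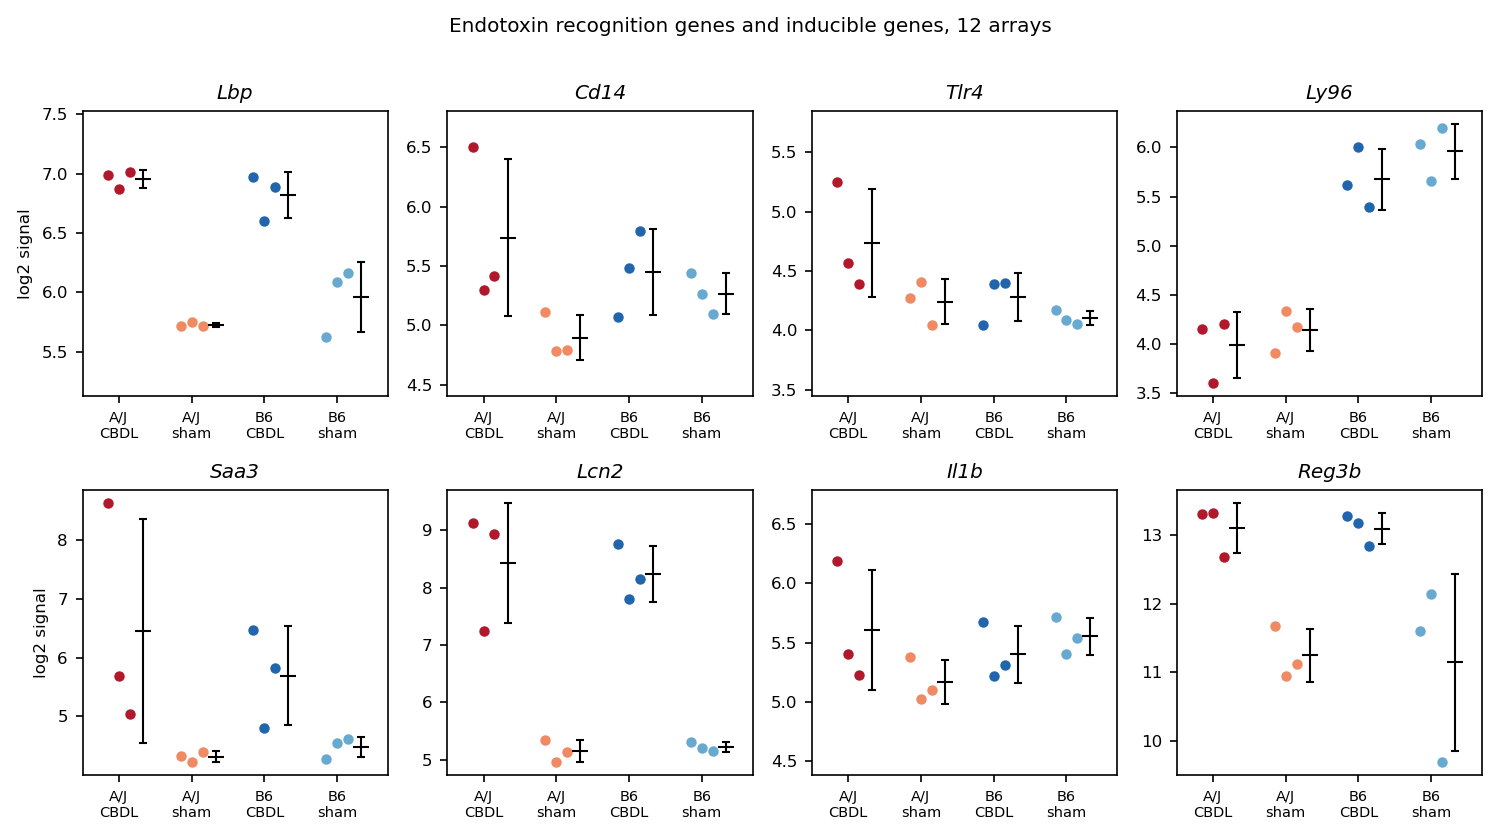
Log2 signal of the 4 genes of endotoxin recognition (upper row) and of 4 inducible genes (lower row) in each group, with 1 point per array and the mean with its SD (n = 3) at the right of each group; each vertical axis has its own range. Lbp is 6.60 to 7.01 in the CBDL groups and 5.62 to 6.17 in the sham groups, and the first A/J CBDL point is the highest of the 12 for Cd14, Tlr4, Saa3 and Il1b.

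Tlr3, the endosomal receptor for double-stranded RNA, had lower signals after ligation in both strains. The 3 A/J CBDL arrays had 6.58, 6.87 and 6.78, against 7.14, 7.31 and 7.49 in A/J sham. The 3 B6 CBDL arrays had 6.78, 6.99 and 6.42, against 7.16, 6.90 and 7.43 in B6 sham. The A/J groups did not overlap, and in B6 1 CBDL array, at 6.99, lay above 1 sham array, at 6.90. CBDL minus sham was -0.57 in A/J (SE 0.17, unadjusted p = 0.00722, limma adjusted p = 0.171) and -0.43 in B6 (SE 0.17, unadjusted p = 0.0296, limma adjusted p = 0.569). Averaged over strains it was -0.50 (95% interval -0.77 to -0.23), a fold of 0.707, with an unadjusted p of 0.00180 and a limma adjusted p of 0.0768.

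The Tlr3 average therefore fell short of the threshold as fitted, and it passed under 3 of 20 other settings: quantile normalisation (-0.53, limma adjusted p = 0.0396), only probe sets with a single symbol (-0.50, limma adjusted p = 0.0248) and array weights (-0.50, limma adjusted p = 0.0340). With an array left out it passed in 0 of 12 fits (limma adjusted p = 0.0637 to 0.162). With the hepatocyte mean as a covariate it was -1.01 (limma adjusted p = 1.00), in a fit that called 0 of all probe sets and so cannot decide. The responses of the strains differed by -0.14 (95% interval -0.67 to 0.40, limma adjusted p = 0.944). Between the strains Tlr3 differed by 0.08 averaged over operations (95% interval -0.18 to 0.35).

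The upstream sequences of the members differed in the short motifs they held. Of the 10 listed genes, 7 were found by symbol in a RefSeq table of promoters on GRCm38.p6, with 8 start sites, and the 250 bases before each start were searched on both strands for the NF-kB consensus, for the interferon response element core (GAAA followed, after NN, by another GAAA) and for the STAT site TTCNNNGAA, which can overlap one another. Those of Tlr3, with the largest ligation difference of the 6 that were measured, of Tlr2, which holds the same consensus, and of the shared adaptor Myd88 are shown, each on the minus strand, ending at the base before the start, with motif matches in capitals. The Tlr3 window is chr8:45410381-45410630, the Tlr2 window chr3:83841609-83841858 and the Myd88 window chr9:119340019-119340268.
Tlr3: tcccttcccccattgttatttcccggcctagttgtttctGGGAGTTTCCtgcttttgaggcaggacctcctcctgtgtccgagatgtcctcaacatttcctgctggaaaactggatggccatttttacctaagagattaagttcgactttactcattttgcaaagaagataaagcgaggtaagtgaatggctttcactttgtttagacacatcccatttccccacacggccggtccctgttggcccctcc
Tlr2: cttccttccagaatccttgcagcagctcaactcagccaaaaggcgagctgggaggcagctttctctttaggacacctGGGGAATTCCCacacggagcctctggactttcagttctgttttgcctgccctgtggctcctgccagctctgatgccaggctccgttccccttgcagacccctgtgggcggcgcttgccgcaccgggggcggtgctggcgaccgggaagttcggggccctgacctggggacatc
Myd88: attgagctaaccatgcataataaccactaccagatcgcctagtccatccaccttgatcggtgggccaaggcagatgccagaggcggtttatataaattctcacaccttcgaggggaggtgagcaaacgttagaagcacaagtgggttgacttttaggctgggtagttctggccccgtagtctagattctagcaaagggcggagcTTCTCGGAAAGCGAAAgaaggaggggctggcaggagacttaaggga
The Tlr3 match to the NF-kB consensus begins 211 bases before the start, and the overlapping matches in Tlr2 begin 173 and 172 bases before it. In Myd88 the match to the interferon response element core begins 40 bases before the start and overlaps a match to TTCNNNGAA that begins 46 bases before it. A match to TTCNNNGAA was also found at 1 of the 2 starts of Nod1, and none of these motifs was found in the windows of Tlr5, Tlr9 and Nod2. Over 32851 windows of the same length, 7.25% held the NF-kB consensus, 2.98% held the interferon response element core and 7.02% held TTCNNNGAA. These matches describe letters and were not set against binding data.

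Tlr9, the endosomal receptor for bacterial DNA, showed wide scatter and no called difference. Its log2 signals were 4.84, 5.50 and 5.45 in A/J CBDL and 5.72, 5.0 and 5.52 in A/J sham, and 5.46, 5.10 and 5.28 in B6 CBDL and 5.44, 5.68 and 5.17 in B6 sham. All 4 groups overlapped. The ligation difference averaged over strains was -0.15 (95% interval -0.50 to 0.20, limma adjusted p = 0.737), and the strain difference averaged over operations was -0.01 (95% interval -0.36 to 0.33).

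Tlr2, the lipoprotein receptor, likewise showed no called difference. Its log2 signals were 5.85, 5.25 and 5.74 in A/J CBDL and 5.64, 5.78 and 5.65 in A/J sham, and 5.62, 5.56 and 5.49 in B6 CBDL and 5.59, 5.86 and 5.48 in B6 sham. The ligation difference averaged over strains was -0.08 (95% interval -0.32 to 0.15, limma adjusted p = 0.789). CBDL and sham arrays overlapped in each strain, and A/J and B6 arrays overlapped under each operation. The Tlr2 promoter shown above holds the NF-kB consensus, as that of Tlr3 does. The partners of Tlr2, Tlr6 and Tlr1, were called between the strains. Tlr6 was higher in A/J by 0.62 averaged over operations (SE 0.10, limma adjusted p = 0.00524), with 4.57, 4.60 and 4.58 in A/J CBDL against 4.08, 3.72 and 4.01 in B6 CBDL, and 4.51, 4.87 and 5.01 in A/J sham against 4.04, 4.26 and 4.32 in B6 sham. Tlr1 was higher in A/J by 0.55 (SE 0.11, limma adjusted p = 0.0150), a call lost with the hepatocyte mean as a covariate (0.53, limma adjusted p = 0.273). Every A/J array exceeded every B6 array of the same operation for both partners. Tlr1 and Tlr6 are close paralogs with neighbouring genes, and whether a part of their signals is shared was not tested.

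Nod1 and Nod2, which read cell wall fragments in the cytosol, had some of the narrowest spreads. Nod1 ranged from 5.39 to 5.64 over all 12 arrays, with a residual SD of 0.0835, the lowest of the 9 members, where Cd14 had the highest at 0.398. Its ligation difference averaged over strains was -0.04 (limma adjusted p = 0.844), with a 95% interval of -0.18 to 0.10. The mean signals of Nod1, 5.56, and Nod2, 5.34, lay near the array medians of 5.36 to 5.51. How far background signal narrows their spreads and differences was not tested. Nod2 had 5.26, 5.37 and 5.44 in A/J CBDL and 5.40, 5.51 and 5.39 in A/J sham, and 5.48, 5.26 and 5.14 in B6 CBDL and 5.35, 5.37 and 5.09 in B6 sham. Its A/J sham arrays all lay above its B6 sham arrays, with the closest values at 5.39 and 5.37, but the difference of 0.17 did not pass the test (SE 0.11, limma adjusted p = 0.519). The ligation difference of Nod2 averaged over strains was -0.03 (95% interval -0.20 to 0.15).

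Myd88, the adaptor on which most of the Toll-like receptors converge, did not move with ligation beyond its spread. Its log2 signals were 8.24, 8.01 and 7.93 in A/J CBDL and 7.90, 8.31 and 8.08 in A/J sham, and 8.18, 7.78 and 7.61 in B6 CBDL and 7.86, 7.77 and 7.98 in B6 sham. The groups overlapped in each comparison. The ligation difference averaged over strains was -0.02 (95% interval -0.27 to 0.22, limma adjusted p = 0.952), and the strain difference averaged over operations was 0.22 (95% interval -0.03 to 0.46, limma adjusted p = 0.308).

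Counted over the members, ligation gave 0 calls of 9 in A/J, where 0.818% of all probe sets were called, and 0 of 9 in B6, where 0.0534% were called. Averaged over strains it gave 0 of 9, beside 1.74% of all probe sets, and the strain-by-ligation test gave 0 of 9, beside 0.0366%. At an unadjusted p under 0.05 in limma, the members numbered 3 of 9 in A/J (Tlr3, Tlr4 and Cd14), 1 of 9 in B6 (Tlr3), 3 of 9 averaged over strains (Tlr3, Tlr4 and Cd14) and 0 of 9 in the strain-by-ligation test, beside 14.2%, 7.64%, 14.1% and 6.88% of all probe sets. Between the strains they numbered 1 of 9 in sham mice (Ly96), 2 of 9 in CBDL mice (Ly96 and Tlr4) and 1 of 9 averaged over operations (Ly96), beside 15.4%, 13.7% and 19.9% of all probe sets. The median of the 9 ligation differences was -0.08 in A/J and -0.05 in B6, beside -0.01 and -0.00 over all probe sets, and the median strain difference was 0.05 in sham mice and 0.06 in CBDL mice, beside 0.01 for each over all probe sets. With no overlap between CBDL and sham arrays there were 2 members in A/J, Cd14 above and Tlr3 below, and 0 in B6, where 17.1% (8.04% above and 9.07% below) and 15.5% of all probe sets did not overlap. Between the strains there were 2 in sham mice, Nod2 above and Ly96 below in A/J, and 1 in CBDL mice, Ly96 below in A/J, where 18.7% (9.15% above and 9.53% below) and 21.7% (11.3% below) of all probe sets did not overlap. The comparisons of CBDL with sham and of A/J with B6 share arrays and are not independent of each other.

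**Figure D3:**
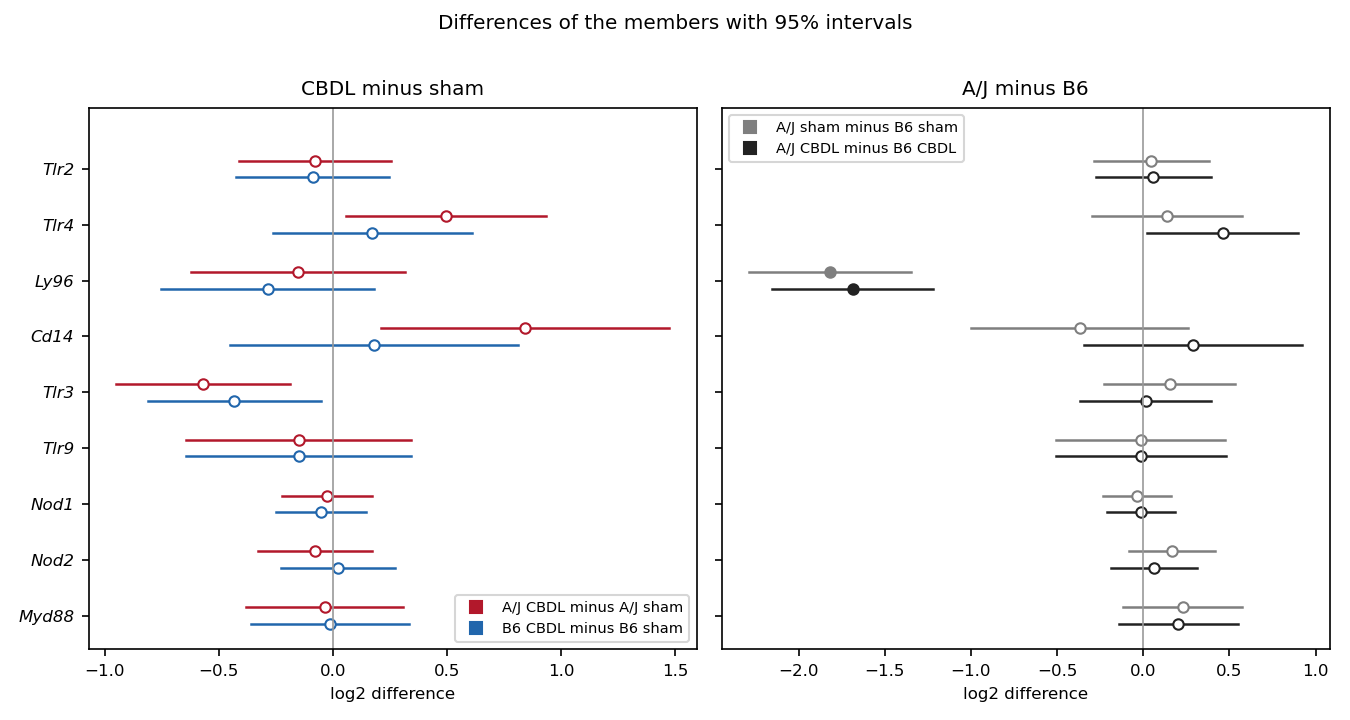
Log2 differences of the 9 members with 95% intervals (horizontal bars, not adjusted for the number of probe sets), for CBDL minus sham in each strain (left) and A/J minus B6 under each operation (right); filled points are called at a limma adjusted p under 0.05. Ly96 at -1.69 and -1.82 in the strain comparisons is the only member with filled points.

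The rest of the pathway was followed in 102 other genes, of which 93 had a probe set with their symbol alone. Averaged over strains, ligation gave 3 of the 93 called higher and 2 called lower, or 5.38% beside 1.74% of all probe sets, and strain averaged over operations gave 5 called higher in A/J and 2 called lower, or 7.53% beside 4.63%. Within A/J, ligation gave 2 called higher, or 2.15% beside 0.818%, and within B6 it gave 1, or 1.08% beside 0.0534%. With the hepatocyte mean as a covariate, Tlr6 averaged over operations (limma adjusted p = 0.0455) alone kept its call among the named genes of these lists, in fits that called 0 of all probe sets for ligation averaged over strains and 353 for strain averaged over operations. The medians of the 93 differences were -0.02 for ligation and 0.06 for strain, beside -0.01 and 0.01 over all probe sets. In the strain-by-ligation test 0 of the 93 were called in limma, beside 0.0366% of all probe sets.

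Among the 17 other receptors and co-receptors measured, Lbp was called higher and Ddx58 lower after ligation, beside 1.74% of all probe sets called. Averaged over strains, 14 of the 17 ligation differences were negative, with a median of -0.17. At an unadjusted p under 0.05 in limma, 11 of 17 passed averaged over strains, beside 14.1% of all probe sets. In A/J 6 of 17 passed, beside 14.2%, and in B6 8 of 17, beside 7.64%. Ddx58, which encodes the cytosolic RNA sensor RIG-I, differed by -0.39 averaged over strains (SE 0.08, limma adjusted p = 0.0357). Its log2 signals were 8.30, 8.51 and 8.40 in A/J CBDL and 8.64, 8.94 and 8.93 in A/J sham, and 8.27, 8.51 and 8.19 in B6 CBDL and 8.65, 8.70 and 8.68 in B6 sham, so that neither strain's groups overlapped. Irf7, 1 of 11 transcription factors measured and an inducer of type I interferons downstream of Tlr9 and the RNA sensors, differed by -0.42 after ligation averaged over strains (SE 0.09, limma adjusted p = 0.0420). It was also higher in A/J than in B6, by 0.41 averaged over operations (SE 0.09, limma adjusted p = 0.0251). When single arrays were left out, both ligation calls remained in 2 of 12 fits and the strain call of Irf7 in 8.

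Of the 17 other receptors and co-receptors, 4 were called between the strains averaged over operations, beside 4.63% of all probe sets. They were Tlr1, Tlr6, Cd36 and Ifih1. Cd36, a scavenger receptor and fatty acid transporter that assists Tlr2 with Tlr6, was higher in A/J by 0.64 averaged over operations (SE 0.12, limma adjusted p = 0.0126; 0.0675 with the hepatocyte covariate). Ifih1, the RNA sensor MDA5, was lower in A/J by 0.52 (difference -0.52, SE 0.09, limma adjusted p = 0.00754; 0.274 with the hepatocyte covariate), with 8.01, 7.97 and 8.03 in A/J CBDL against 8.43, 8.63 and 8.40 in B6 CBDL, and 8.19, 8.19 and 8.51 in A/J sham against 8.93, 8.62 and 9.04 in B6 sham. Among the 7 genes of receptor trafficking, Slc15a4, an endolysosomal transporter that carries ligands of Nod1 and Nod2, was higher in A/J by 0.51 (SE 0.12, limma adjusted p = 0.0313). Slc15a2, a plasma membrane peptide transporter, was lower in A/J (difference -0.70, SE 0.15, limma adjusted p = 0.0211). Its group means were 3.65 in A/J CBDL, 3.66 in A/J sham, 4.63 in B6 CBDL (SD 0.50) and 4.09 in B6 sham. All lay below the array medians of 5.36 to 5.51, and how far background signal enters the difference was not tested. The call of Slc15a4 remained in 4 of 12 fits with an array left out and that of Slc15a2 in 8.

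Single comparisons of the strains added few further genes. Of the 93 other pathway genes, 4.3% were called between CBDL mice, beside 1.78% of all probe sets, and 1.08% between sham mice, beside 1.87%. Between CBDL mice, Tlr6 at 0.64 (limma adjusted p = 0.0483), Slc15a4 at 0.80 (limma adjusted p = 0.0350) and Rel, an NF-kB subunit, at 0.55 (limma adjusted p = 0.0342) were called higher in A/J, and Slc15a2 at -0.98 (limma adjusted p = 0.0419) was called lower. Between sham mice, the chemokine gene Ccl5 at -0.69 (limma adjusted p = 0.0466) was called lower in A/J. When single arrays were left out, Tlr6 kept its call between CBDL mice in 2 of 12 fits, Slc15a4 in 3, Rel in 4, Slc15a2 in 1 and Ccl5 between sham mice in 3. Of 18 adaptors and kinases and 16 negative regulators, 0 were called in any of the 7 comparisons by limma. At an unadjusted p under 0.05 in limma they numbered 2 of 18 and 5 of 16 for ligation averaged over strains, beside 14.1% of all probe sets. For strain averaged over operations they numbered 4 of 18 and 2 of 16, beside 19.9% of all probe sets.

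Among the 24 inducible target genes, 2 were called after ligation averaged over strains, beside 1.74% of all probe sets, and both encode antibacterial proteins. Lcn2, which binds bacterial iron carriers, was higher by 3.28 in A/J (SE 0.41, limma adjusted p = 0.00678) and by 3.02 in B6 (SE 0.41, limma adjusted p = 0.0499), and by 3.15 averaged over strains (SE 0.29, limma adjusted p = 0.000926). Reg3b, a secreted lectin of the epithelium, was higher by 1.91 averaged over strains (SE 0.35, limma adjusted p = 0.0231). Saa3 was not called, at 1.68 averaged over strains (SE 0.52, limma adjusted p = 0.164), with A/J CBDL replicate 1 far above the rest. The responses of Lcn2 differed between A/J and B6 by 0.26 (SE 0.59, limma adjusted p = 0.960). Lcn2 in B6 kept its call in 2 of 12 fits with an array left out and Reg3b in 6, while Lbp and Lcn2 averaged over strains kept theirs in all 12. With the hepatocyte mean as a covariate the differences averaged over strains were 3.98 for Lcn2 (limma adjusted p = 0.583) and 4.15 for Reg3b (limma adjusted p = 0.379). That fit called 0 of all probe sets for ligation averaged over strains, so the lost calls are not particular to these genes.

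**Figure D4:**
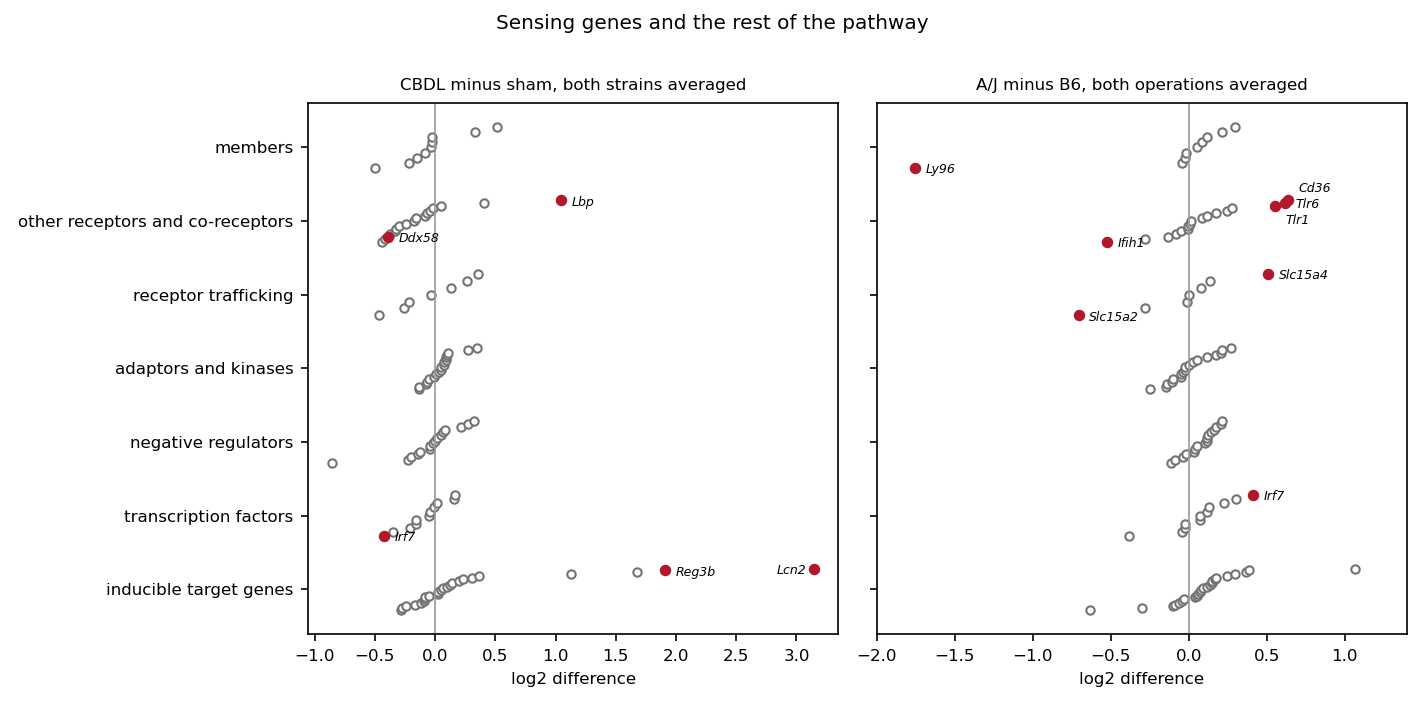
Log2 differences of the 9 members and of 93 other pathway genes, by list (rows), for CBDL minus sham averaged over strains (left) and A/J minus B6 averaged over operations (right), with 1 point per gene and filled, named points called at a limma adjusted p under 0.05. Ligation calls are Lbp, Ddx58, Irf7, Reg3b and Lcn2, strain calls include Ly96 at -1.75, and the adaptors, kinases and negative regulators hold open points alone.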

How the data were processed

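Per the labels, the deposited log2 signals were computed by RMA (Affymetrix Expression Console), while the study's methods name GCRMA. No source used here gives the versions of these tools or the genome build of the probe sets. The table holds 35556 probe sets on 12 arrays, with values from 1.57 to 14.4 and array medians from 5.36 to 5.51. Of the probe sets, 21789 carried 1 gene symbol in the platform annotation, 1621 several and 12146 none. No further normalisation was applied. In R 4.3.3, limma 3.58.1 fitted a mean to each group with moderated variances (eBayes), and 7 comparisons were drawn: ligation within either strain, strain within either operation, the average of each pair, and the strain-by-ligation difference. The model was tested on simulated data with changes planted only in probe sets brighter than the median. That test does not cover the levels of Tlr4, Tlr9, Cd14, Ly96 and Nod2, which lay below the median. The members and the lists of pathway and marker genes were chosen with earlier results of these data known. Beyond the members, up to 4 called genes of each list were named in a comparison, and Saa3 and Il1b were named after their values were seen. Alternatives were another normalisation, filter, variance prior or array weighting, only the arrays compared, a replicate block, a hepatocyte covariate, a fold of 1.5 and each array left out. RNA arrays carry no read depth, so their number, 3 a group, limits the precision.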

Additional observations from a re-analysis of the deposited data

How the results depend on the processing

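Counts of called members kept their value in the 7 comparisons in all but 4 cases. The call of Ly96 between shams was lost with the hepatocyte mean as a covariate, where 0 members were called against 1. For ligation averaged over strains, 1 member, Tlr3, was called with quantile normalisation, with only probe sets of exactly 1 gene symbol and with array weights, against 0 as fitted. The cause was not tested. With any 1 of the 12 arrays left out, Ly96 kept its call in all 12 fits of each strain comparison, with limma adjusted p up to 0.00874 between shams, 0.0161 between CBDL groups and 0.000361 averaged. Replicate numbers were shared by the groups, but arrays of the same number deviated with correlations of -0.31 to 0.36 over 18 pairs and were not treated as pairs. With the replicate number as a block the count of called members was the same in each comparison, and Ly96 averaged over operations had a limma adjusted p of 0.000478. The block ended the calls of Tlr6, Slc15a4, Slc15a2 and Rel between CBDL groups (0.0568 to 0.0798), Slc15a4 averaged over operations (0.0648), Irf7 for ligation (0.0848) and strain (0.0520), Ccl5 between shams (0.0865) and Lcn2 in B6 (0.0601). Each member had 1 probe set, so no other could be tried, and all 9 stayed after the 30% dimmest probe sets were left out. Counts over all probe sets moved far more: across all alternatives they ran from 0 to 1299 for ligation in A/J, 1 to 167 in B6 and 0 to 1510 averaged, from 23 to 3044 between shams, 290 to 1261 between CBDL groups and 353 to 4490 for the strain average, and from 0 to 28 for the strain-by-ligation test. Of the single values of members, 1268 stayed within the residual SD and on their side of the threshold, 24 moved by more, 3 gained a call and 1 lost it. Of the values of the other called genes, 269 stayed on their side of the threshold and 137 lost the call.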
